A study of Mus musculus with 34 samples.

Results

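A set of 1221 regions was open chromatin in cultured hair follicle stem cells (HFSCs) with Rxra and seldom called open in HFSCs that had lost it. Peaks on chromosomes 1 to 19 from 13 ATAC-seq lists of cultured cells were merged wherever they overlapped by at least 1 bp, which gave 159202 regions. A region was a member when 7 or 8 of the 8 Rxra WT lists and at most 1 of the 5 Rxra cKO lists held a peak in it. Members were 0.767% of all regions and 2.33% of the 52376 regions called in 7 or 8 WT lists, referred to here as WT-present regions. The members were chosen by the presence of peaks in these 13 lists, so presence in them is a description and no test was made on it. The label, regions present only with Rxra, held strictly for 389 members. The other 832 had a peak in 1 cKO list.

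ATAC-seq uses a transposase that cuts accessible DNA, and sequenced fragments pile up into peaks at promoters and enhancers. All 13 lists of the rule came from HFSC cultures of mouse skin. Both kinds of cells carried the tamoxifen-inducible recombinase Sox9-creER+ and a floxed R26-YFP reporter on both alleles, and Rxra was +/+ in WT and fl/fl in cKO cells. Both received 4-hydroxytamoxifen in culture and were sorted for YFP, so the recombinase had acted in both genotypes, and both were grown on fibroblast feeders. WT cells were given apoptotic HFSC corpses (n = 4) or corpses treated with BEL, an inhibitor of the phospholipase iPLA2 (n = 4). The cKO cells were given corpses (n = 3) or a mix of lipids in place of corpses (AA+LPC+RA, n = 2). The mix was arachidonic acid (AA), lysophosphatidylcholine (LPC) and 2 isomers of retinoic acid (RA). All WT lists thus had corpses while 2 of the 5 cKO lists did not. The cells of each genotype were derived as a culture line of their own, and how many lines stood behind the replicates was not stated, so genotype and cell line cannot be told apart. In vivo, the study describes the Rxra libraries as sorted HFSCs from late catagen (CatVII) skin of tamoxifen-treated mice with 1 floxed R26-YFP allele. Other in vivo libraries, labelled wild type, were sorted HFSCs from late anagen, the end of the growth phase (AnaVI, n = 2), and from CatVII skin (n = 6). The Rxra cKO libraries (n = 3) were from Rxra fl/fl mice with Sox9-creER+. For the Rxra WT libraries (n = 4) the study's own descriptions differ. In its account of the mice, controls either lacked the recombinase or carried it with 1 floxed Rxra allele. Its account of the sort gives Rxra +/+ with Sox9-creER+, and which holds for these libraries could not be settled. The stored peak names of WT replicates 2 to 4 (P37, NonPhago 4 to 6) continue those of the wild type libraries (P37, NonPhago 1 to 3). Only WT replicate 1 is named as the cKO libraries are, so whether WT replicates 2 to 4 came from this line is not known. All 4 WT libraries carry NonPhago. The labels number the cKO mice 1 to 3, but the stored peak names of cKO replicates 2 and 3 share 1 mouse tag and differ by NonPhago and Phago, so whether they are separate mice is not known, and every n = 3, SD and p of this group is over libraries. Nothing in the labels says which replicates of a culture were grown apart, so the p-values below measure only the spread between these samples.

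RXRα is a nuclear receptor that binds DNA together with a partner, such as a retinoic acid receptor, LXR or PPAR. Such pairs recognise repeats of a short half-site, AGGTCA, in which the spacing between the copies helps to select the partner. In hair follicles, catagen is the phase of regression, in which HFSCs meet dying neighbours and can engulf them.

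Sequences of 10 members are shown first because they hold the kind of element that RXR pairs are known to recognise, a direct repeat of half-sites. The search used AGGTCA with G also allowed at position 1 and T at position 3, in direct repeats with a spacer of 1, 2 or 5 bases, on both strands of the 200 bp around the strongest WT summit. Capitals mark the repeat, both half-sites and the spacer between them, and each line is the strand that reads the repeat 5′ to 3′. Sequences are from the mm39 reference, and regions are named by the nearest coding gene.

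The A1bg, Aff1, Vcl and Fzd7 regions hold a spacer of 1 base. They lie at chr15:60760706-60760758 (minus strand, between genes), chr5:103857000-103857052 (minus, an intron of Aff1), chr14:21019278-21019330 (plus, an intron of Vcl) and chr1:59514907-59514959 (plus, 6375 bp from the start of Fzd7).
A1bg: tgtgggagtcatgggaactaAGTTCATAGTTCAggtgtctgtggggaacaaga
Aff1: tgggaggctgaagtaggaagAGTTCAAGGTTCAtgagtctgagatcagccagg
Vcl: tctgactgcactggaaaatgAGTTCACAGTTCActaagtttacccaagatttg
Fzd7: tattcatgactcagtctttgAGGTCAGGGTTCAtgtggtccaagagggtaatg

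The Epb41 and Nfasc regions hold a spacer of 2 bases, at chr4:131830096-131830149 (minus strand, between genes) and chr1:132514476-132514529 (plus, 314 bp from a start of Nfasc).
Epb41: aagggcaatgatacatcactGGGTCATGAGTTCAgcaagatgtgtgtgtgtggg
Nfasc: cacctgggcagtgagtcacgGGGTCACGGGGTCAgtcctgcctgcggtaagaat

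The Pde4d, Krt33a, Sema5a and Ppl regions hold a spacer of 5 bases, the spacing best known for retinoic acid receptor with RXR. They lie at chr13:109512205-109512261 (plus strand, an intron of Pde4d), chr11:99896827-99896883 (minus, 7890 bp from the start of Krt33a), chr15:32611139-32611195 (plus, an intron of Sema5a) and chr16:4931649-4931705 (minus, an intron of Ppl).
Pde4d: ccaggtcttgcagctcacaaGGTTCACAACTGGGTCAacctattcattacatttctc
Krt33a: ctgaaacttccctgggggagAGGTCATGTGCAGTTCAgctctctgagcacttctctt
Sema5a: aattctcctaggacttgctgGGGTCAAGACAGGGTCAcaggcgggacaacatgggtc
Ppl: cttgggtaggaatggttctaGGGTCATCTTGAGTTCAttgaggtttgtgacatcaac

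These 10 were 0.819% of members, beside 0.267% of WT-present and 0.305% of all regions. With strict AGGTCA copies and a spacer of 0 to 5 bases, 0 members held a repeat, against 0.0325% of WT-present and 0.0528% of all regions. A single AGGTCA was in 12.1% of member windows, 10.9% of WT-present and 12.2% of all windows, so the half-site alone did not set members apart. Of the genes beside these elements, Vcl encodes vinculin, which links actin to adhesion sites, Ppl encodes the desmosomal linker periplakin, Krt33a a hair keratin, Fzd7 a WNT receptor and Pde4d a cyclic AMP phosphodiesterase. In vivo, the Epb41 region was called in 4 of 4 Rxra WT and 2 of 3 cKO libraries, and the Pde4d, Krt33a, Ppl and Fzd7 regions in 2 WT and 0 cKO libraries each. The Aff1 region was called in 1 WT and 1 cKO, the Sema5a region in 3 WT and 1 cKO and the Nfasc region in 1 WT and 2 cKO libraries. The A1bg and Vcl regions were called in none of the 7.

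The 34 lists held 3976 to 126373 autosomal peaks each, and those of the rule 56812 to 126373. Promoters of 10 to 12 of 13 HFSC and keratinocyte markers carried a peak in the WT lists and 12 in each cKO list, with Krt14, Krt5, Sox9 and Trp63 open in every one and Cd34 in none. Of 13 fibroblast markers, which would mark the feeder layer, 2 to 5 were open in WT and 2 to 4 in cKO lists, always Col1a1 and Pdgfra, and Col3a1, Lum, Dcn and Fap in none. Melanocyte markers stood at 2 to 3 of 8 and immune markers at 2 to 3 of 8 in both genotypes, and endothelial markers at 1 to 5 of 7 in WT and 3 to 5 in cKO lists. At Rxra itself (chromosome 2, 27566452 to 27653330), a promoter peak was called in all 13 lists, and no member lay in the gene body. Which part of Rxra recombination removes was not stated in the labels or methods, so these peaks do not check the deletion.

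The lists did not hold the members equally. Among WT lists, members were missed most by corpse replicate 1, which held 753 of 1221, and replicate 2, which held 1072. The other 6 WT lists held 1104 to 1218. In the cKO lists, the single peaks came mostly from corpse replicate 3 (443 members) and replicate 1 (285 members), the longest lists of the 13 with 126373 and 118245 peaks. Without cKO corpse replicate 3 or 1, and with at most 1 peak in the 4 cKO lists left, 3332 and 3321 regions were kept. Without WT corpse replicate 1 or 2, and with a peak in at least 6 of the 7 WT lists left, 2173 and 1955 were kept. Each of these settings was looser than the rule, so a rise in the count was built in. The peak names stored in the files add that corpse and BEL replicates 1 and 2 of the WT cells carry the tag NonPhago and replicates 3 and 4 the tag Phago, a division the labels do not give.

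Just inside the threshold, 548 regions had a peak in 7 WT lists and 1 cKO list, and their median fold enrichment over the local background was 6.08 in the WT lists. Just outside, 1408 regions had 7 WT and 2 cKO lists with a median of 6.45, and 855 had 6 WT and 1 cKO list with a median of 5.51. The fold enrichment of the cKO peaks was taken only where a peak was called. The medians of these called cKO peaks were 4.99 in the 548 regions, 6.21 in the 1408 and 5.23 in the 855. They leave out the cKO lists without a peak, so they do not compare the genotypes. The strictest class, 8 WT and 0 cKO lists, held 116 regions with a median of 6.36. Over all members the median was 6.10, against 10.3 over WT-present regions, so members were shallow peaks for these cultures. Which regions met the rule moved with the processing. With every list cut to its 56812 strongest peaks, 1958 regions met it, of which 234 were among the 1221. With a stricter peak threshold 1057 met it, 441 of them among the 1221. With the corpse lists alone, a peak was asked for in all 4 WT and at most 1 of 3 cKO lists. This kept 1316 regions, 573 of them among the 1221. For scale, the mirror pattern of at most 1 WT list and 4 or 5 cKO lists held 2534 regions.

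**Figure D1:**
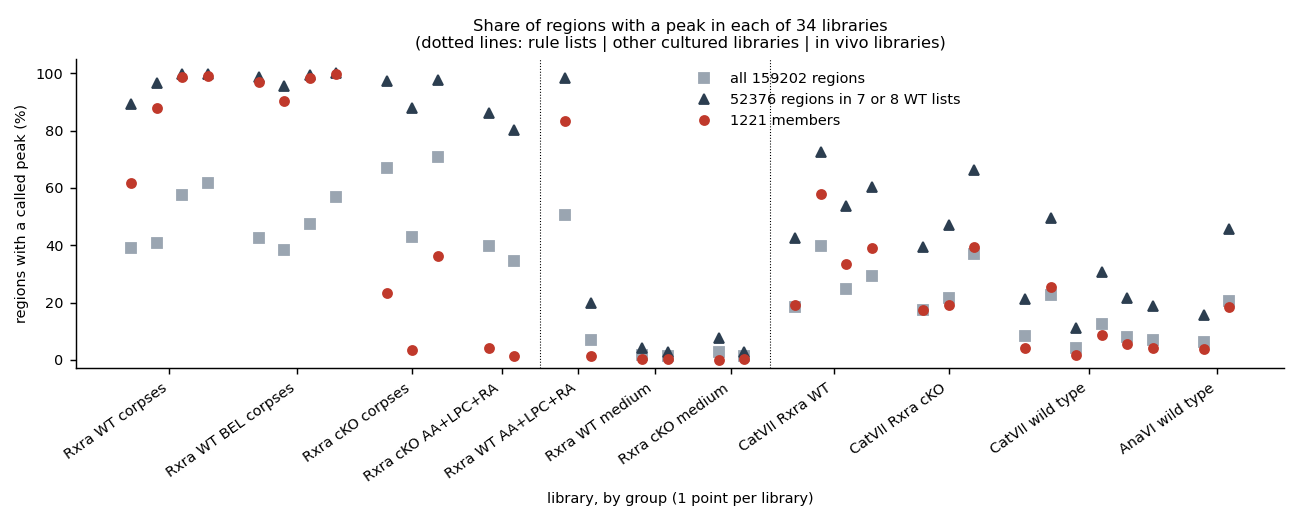
Percent of regions with a called peak in each of the 34 libraries, by group, for the 1221 members (circles), the 52376 WT-present regions (triangles) and all 159202 regions (squares). Left of the first dotted line are the 13 lists that chose the members; outside them, the members' share was highest in the Rxra WT AA+LPC+RA replicate 1 at 83.2%.

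Other motifs were counted in the same windows, on both strands. Away from promoters, where members are more alike to the comparison sets in position, the AP-1 motif TGANTCA was in 36.5% of member windows, 47.2% of WT-present and 37.4% of all windows. The TEAD motif GGAATG was in 13.5% of members, 19.8% of WT-present and 18.6% of all windows, and the RUNX motif TGTGGT in 18.9%, 22.9% and 23.5%. AP-1, TEAD and RUNX are factors known from wounded and cultured keratinocytes, and all of their motifs were less frequent in members than in WT-present regions. Members were also shallower than WT-present regions (median fold 6.10 against 10.3), and the part of peak height in these shares was not tested. Somewhat more frequent in members were the NFY motif CCAAT (24.8%, 21.2% and 22.7%) and the C/EBP motif TTGCNNAA (12.5%, 11.01% and 10.2%). The LIM homeodomain motif TAATTA, the kind bound by the HFSC factor LHX2, was in 5.42%, 3.81% and 4.12%, but in windows of 100 bp in 1.55% of members, 1.56% of WT-present and 1.73% of all regions. Shares for the GRHL motif AACNGGTT were 3.97%, 3.42% and 2.90%, and for the GATA motif AGATAA 9.10%, 8.62% and 9.44%. The SOX motif ACAATG stood at 12.97%, 12.8% and 13.6%, and the KLF/SP motif GGGCGG at 6.002%, 5.57% and 4.15%. A match is a run of letters and not a bound site, and these shares carry no test.

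**Figure D2:**
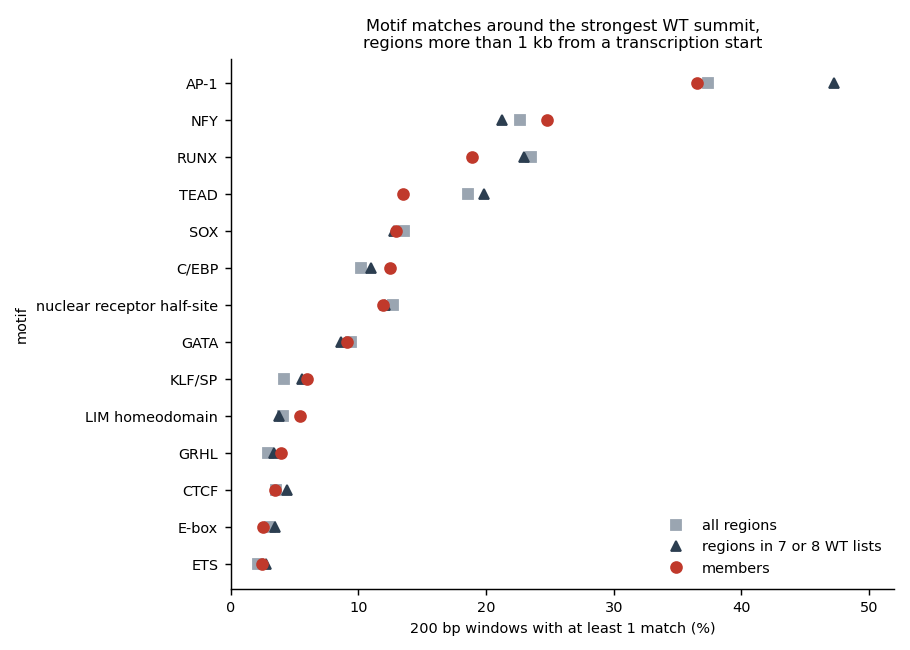
Percent of 200 bp windows with at least 1 motif match, for regions more than 1 kb from a transcription start: members (circles), WT-present regions (triangles) and all regions (squares). The members' AP-1 share of 36.5% sits beside that of all regions (37.4%) and below that of WT-present regions (47.2%).

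Members lay away from promoters more often than the bulk of WT-present regions. Of the 1221, 188 (15.4%) had their summit within 1 kb of a transcription start of a coding or long non-coding gene, against 31.0% of WT-present and 18.6% of all regions. In introns lay 472 (38.7%), between genes 504 (41.3%), in coding exons 11 and in other exon parts 46. The median distance to the nearest coding start was 16790 bp, against 11123 bp for WT-present and 17641.5 bp for all regions. Members spanned 181 to 2284 bp with a median of 507 bp, and the median GC content of the windows was 48.5%, against 50.5% in WT-present regions. They were spread over 1065 nearest genes, of which 125 had 2 or more members. Taking WT-present regions in order along each chromosome, 1146 members stood alone, 33 runs held 2 neighbouring members and 3 runs held 3. A further member lay within 100 kb for 283 members (23.2%).

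Chromosome 2 held far more members than any other chromosome. It carried 206 of 1221, or 4.45% of its WT-present regions, and the other 18 autosomes ranged from 34 of 2910 (chromosome 4) to 49 of 1491, or 3.29% (chromosome 14). Within chromosome 2, the part from 120 Mb to the end carried 132 members, 6.28% of its 2101 WT-present regions, and the part before it 74 members, 2.92%. On the other autosomes together the share was 2.13%.

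The distal part of chromosome 2 also differed in read depth between the cultures at sites open in both genotypes. The number of fragments at a summit was recovered from the deposited fold and p-value, and compared at 33563 regions called in all 13 lists, after centring each library on its median. At distal chromosome 2, the WT libraries stood at 0.37 to 0.45 on the log2 scale (mean 0.41 ± 0.03 SD, n = 8) and the cKO libraries at -0.17 to -0.08 (mean -0.12 ± 0.04 SD, n = 5), with no overlap. The median difference, WT minus cKO, was 0.53 on the log2 scale, or 1.45-fold, over the distal part and 0.07 over the rest of the chromosome. In windows of 10 Mb it went from 0.10 at 110 Mb through 0.31 at 120 Mb to 0.53 to 0.61 in each of the 6 windows from 130 Mb onward. By fold enrichment as deposited, which divides by a local background, the same difference was 0.11.

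The Rxra WT AA+LPC+RA libraries, which the rule did not use, stood at 0.40 and 0.22 on this scale over distal chromosome 2. In vivo the levels were -0.12 to 0 in the 4 Rxra WT and 0 to 0.13 in the 3 cKO libraries. All 12 cultured WT libraries (0.17 to 0.45) thus stood above all 7 cultured cKO libraries (-0.17 to 0) and all 7 CatVII Rxra libraries. Of 250 windows with at least 20 shared regions, 7 exceeded 0.3, all of them on distal chromosome 2, and 5 were below -0.3. Across the 250 windows the difference in fragments and the share of members went together, with Pearson's r 0.53 and Spearman's coefficient 0.45, as a description over neighbouring windows of the same libraries. By chromosome, members were also rarest on chromosome 4, where the median difference was -0.23, but chromosome 14, with the second highest share, had -0.03. Members were also frequent in the windows at 40 and 50 Mb of chromosome 2 (7.53% and 7.39%), where the difference was -0.03 and 0.11. The number of copies of the distal part in the cell lines was not measured, and its part in the choice of members was not tested. Without distal chromosome 2, 1089 members were left, with the same median fold enrichment of 6.10 and 15.8% at promoters.

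**Figure D3:**
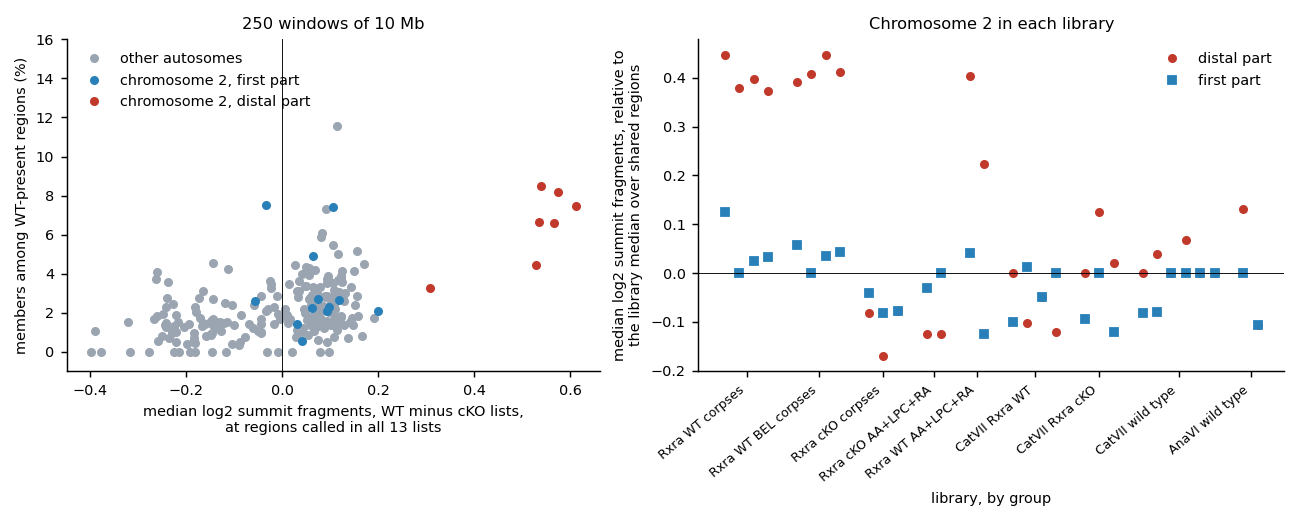
Left, for 250 windows of 10 Mb, the median log2 difference in summit fragments between the WT and cKO lists at regions called in all 13 lists (x axis) and the percent of WT-present regions that are members (y axis). Right, the median log2 summit fragments over shared regions of chromosome 2 in each library, relative to the library median and leaving out the 4 libraries in medium, for the distal part from 120 Mb (circles) and the first part (squares); the 8 WT lists of the rule lie at 0.37 to 0.45 for the distal part and the cKO lists at -0.17 to -0.08.

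Of the 12 strongest members with 8 WT and 0 cKO lists, 6 had no peak in any of the 7 CatVII Rxra libraries. Highest of the 12 was an intronic region of Ptpra, a receptor-type tyrosine phosphatase gene (chr2:130323872-130324674), on distal chromosome 2. Its fold enrichment was 9.01, 20.1, 21.5 and 28.3 in the 4 corpse lists and 12.1, 14.9, 17.3 and 18.4 in the 4 BEL lists. It also reached 16.3 in Rxra WT AA+LPC+RA replicate 1, and no peak was called there in any cKO list or in the 7 CatVII Rxra libraries. Next was an intronic region of Kif5c, a kinesin motor gene (chr2:49587952-49588634), outside the distal part. It had 14.3, 15.04, 20.9 and 23.1 in the corpse lists and 13.3, 9.004, 15.7 and 15.5 in the BEL lists, and no peak in the cKO lists or the 7 CatVII Rxra libraries. A region at the start of a non-coding gene, 170334 bp from Zeb2, a repressor of epithelial genes (chr2:45177424-45178145), had 6.66 to 20.2 in the corpse lists and 10.9 to 16.2 in the BEL lists. The 200 bp at the summits of the Ptpra and Kif5c regions, chr2:130324241-130324440 and chr2:49588213-49588412, are given as the strongest members, on the plus strand. Capitals mark matches to the motifs above, here GATA and RUNX in Ptpra and AP-1 in Kif5c.
Ptpra: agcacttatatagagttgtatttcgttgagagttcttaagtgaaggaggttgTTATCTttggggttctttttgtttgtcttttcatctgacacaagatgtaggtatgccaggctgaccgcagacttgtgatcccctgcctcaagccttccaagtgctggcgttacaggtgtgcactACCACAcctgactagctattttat
Kif5c: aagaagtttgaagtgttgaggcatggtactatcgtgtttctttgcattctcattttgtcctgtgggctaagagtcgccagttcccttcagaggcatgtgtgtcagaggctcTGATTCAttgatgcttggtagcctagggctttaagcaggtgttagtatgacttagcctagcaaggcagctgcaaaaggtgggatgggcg

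Besides the regions of Ptpra, Kif5c and Zeb2, those near Erc2 (a presynaptic scaffold gene), near Efnb2 (the ephrin-B2 ligand gene) and near Flrt3 (an adhesion protein gene) had no peak in the 7 CatVII Rxra libraries. The last lies within an intron of Macrod2 (chr2:140610840-140611725). The region near Cysltr2, a leukotriene receptor gene, was called in 1 WT library, and that of Pcdhga12, a protocadherin gene, in 1 cKO library. The region in Enpp1, which encodes an ectonucleotidase (chr10:24563206-24563918), had 4.997 to 17.7 in the corpse lists and 10.7 to 17.3 in the BEL lists, and no peak in the cKO cultures. In vivo it was called in all 7 libraries, with 6.04 to 11.5 in WT and 8.39 to 14.3 in cKO, so the groups overlapped. The region near Enpp3, a paralog beside it on chromosome 10, was called in 3 WT and 1 cKO libraries, and that of Slc15a2, a peptide transporter gene, in 3 WT and 2 cKO. The region near Hs1bp3 was called in 3 of 4 WT (10.6, 6.60 and 7.94) and 0 of 3 cKO libraries.

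**Figure D4:**
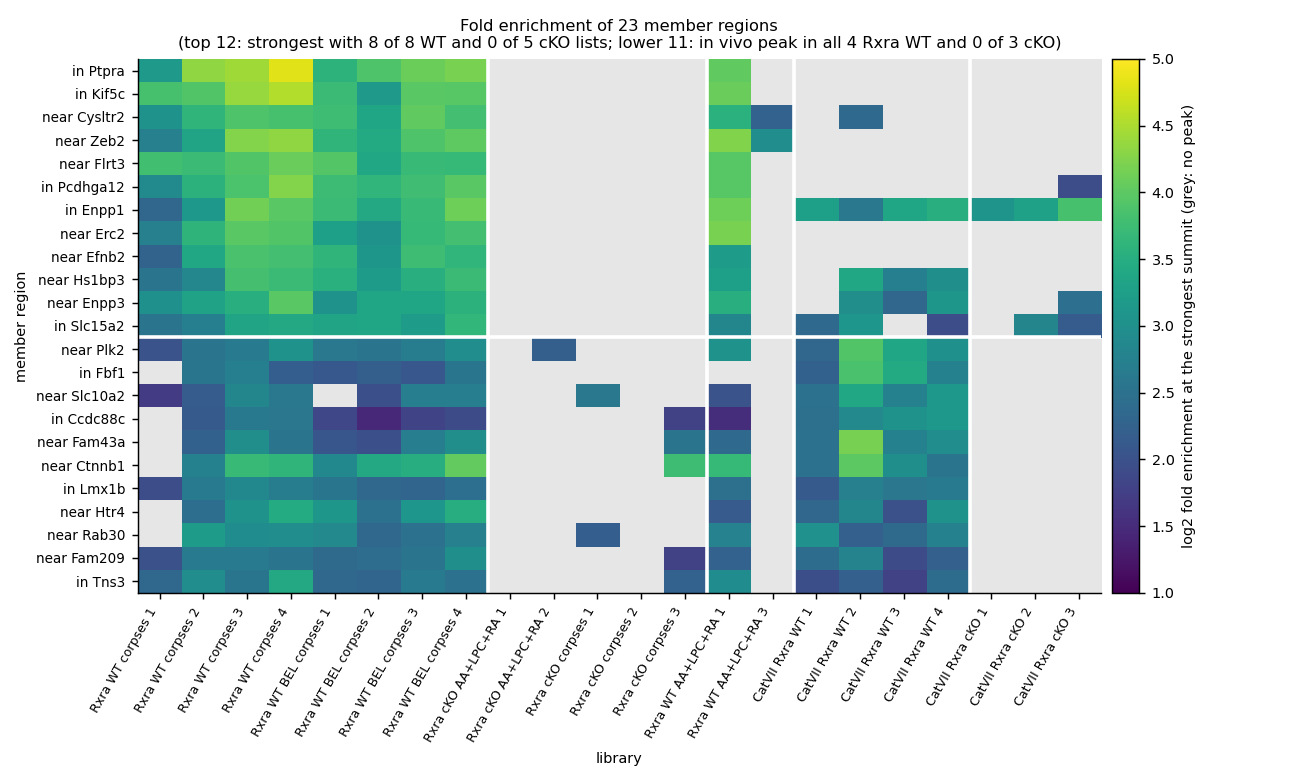
Log2 fold enrichment (colour) at the strongest summit of 23 member regions (rows) in 22 libraries (columns); grey marks no called peak. Above the white line are the 12 strongest members with 8 WT and 0 cKO lists, below it the 11 members called in all 4 CatVII Rxra WT and none of the 3 cKO libraries, where only the Lmx1b region and the Fbf1 and Htr4 regions have no cKO peak in culture.

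The 2 held-out WT cultures without corpses carried the members to very different degrees. Rxra WT AA+LPC+RA replicate 1, grown without corpses, had a peak in 1016 members (83.2%), beside 98.2% of WT-present and 50.4% of all regions. The cKO lists under the same treatment held 49 and 15 members, by the rule. Among the 56812 strongest peaks of each list, the WT library held 423 members (34.6%) and 88.3% of WT-present regions. The cKO libraries held 12 and 15 members, low by the rule, and 82.7% and 80.2% of WT-present regions. Replicate 3 of the WT group, with 12705 peaks, held 16 members (1.31%), and the 4 libraries of cells in medium, with 3976 to 5542 peaks, held 0 to 4. At such lengths absence of a call says little, since these libraries called only 2.80% to 19.7% of WT-present regions.

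In vivo, the shares of members called overlapped between the genotypes over full lists and did not overlap over lists of equal length. Of the 1221 members, 794 (65.0%) had a peak in 1 or more of the 7 CatVII Rxra libraries, against 48.2% of all and 77.7% of WT-present regions. The 4 Rxra WT libraries held 233, 707, 408 and 475 members (19.1%, 57.9%, 33.4% and 38.9%) and the 3 cKO libraries 211, 235 and 482 (17.3%, 19.2% and 39.5%), so the groups overlapped. Cut to the 40458 strongest peaks each, the WT libraries held 18.2%, 25.6%, 23.3% and 24.3% of members and the cKO libraries 17.3%, 14.8% and 15.5%, without overlap (means 22.9 ± 3.26 and 15.9 ± 1.27, SD). Over all regions the ranges overlapped at these lengths, 17.9% to 21.8% in WT and 17.2% to 19.4% in cKO, as did those over WT-present regions, 41.8% to 50.9% and 39.4% to 44.9%. Among 9016 WT-present regions as shallow as members, with a median fold within the middle 50% of that of members, the shares were 22.6% to 30.2% in WT and 21.2% to 24.2% in cKO, which overlap. Set against the share of WT-present regions in the same library, the members' share was 0.435 to 0.517 of it in WT and 0.345 to 0.438 in cKO, which overlap. The lowest WT library, replicate 1, carries the stored tag P42 as all 3 cKO libraries do. WT replicates 2 to 4 carry P37 and continue the naming of the CatVII wild type libraries. All 4 WT libraries carry NonPhago, and cKO replicate 3 carries Phago. The part of these tags in the difference was not tested.

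**Figure D5:**
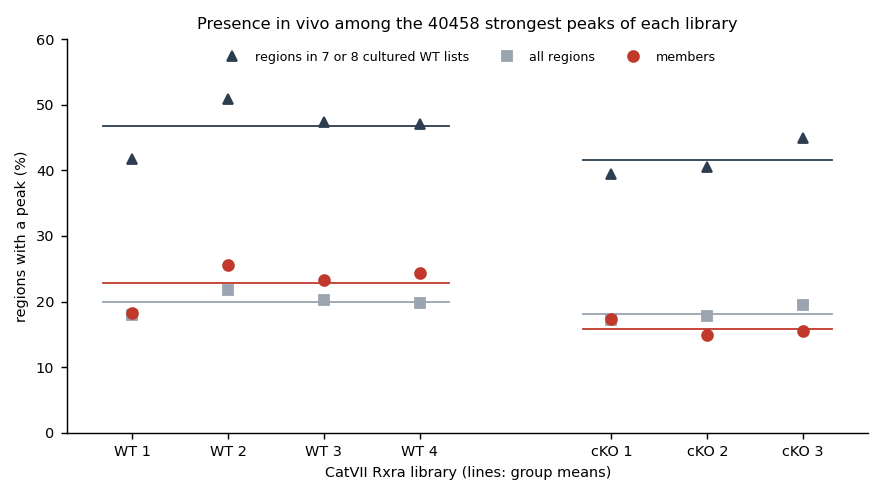
Percent of regions with a peak among the 40458 strongest autosomal peaks of each CatVII Rxra library: members (circles), all regions (squares) and WT-present regions (triangles), with group means as lines. The 4 WT libraries hold 18.2% to 25.6% of members and the 3 cKO libraries 14.8% to 17.3%.

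Region by region, 11 members (0.901%) had a peak in all 4 WT and none of the 3 cKO libraries in vivo, and 1 member (0.0819%) the opposite. The background was 0.18% and 0.0722% of all regions, and 0.283% and 0.0248% of WT-present regions. Fisher's exact test of presence, two-sided, cannot go below p = 0.0286 with 4 against 3 libraries. Over 76744 regions with an in vivo peak, 402 were below 0.05 unadjusted, 12 of them members, and 0 after Benjamini-Hochberg adjustment. Without WT replicate 1, 68 members were called in WT alone, and the background over all regions was then 1.43%. Without cKO replicate 1 it was 21 members (background 0.359%) and without cKO replicate 3 it was 26 (background 0.935%). With only the libraries tagged P42, 1 WT against 3 cKO, 18 members were in WT alone (background 0.532%) and 16 in cKO alone. The background for cKO alone was not computed under this setting, so these counts cannot be set against each other. By share of libraries, 523 members (42.8%) were called more often in WT, against 22.2% of all and 32.2% of WT-present regions. Another 177 (14.5%) were called more often in cKO, against 14.8% and 15.1%. The pattern of 3 WT and 0 cKO libraries, given for several regions here, held 59 members, and its background was not computed. In each region named with this pattern, the WT library without a peak was replicate 1, the only WT library tagged P42.

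The 11 regions lay near genes of diverse function. One, in an intron of Lmx1b, a LIM homeodomain factor gene, was the only one of them called in all 8 cultured WT, all 4 WT libraries in vivo and none of the cKO libraries of either kind (chr2:33483206-33483525, 38943 bp from the nearest start). Its fold enrichment was 3.84, 6.33, 7.29 and 6.49 in the corpse lists, 5.86, 5.12, 4.93 and 5.51 in the BEL lists and 4.39, 6.72, 6.03 and 6.17 in vivo. The strongest in vivo lay 144013 bp from Plk2, a stress-induced kinase gene (chr13:110678093-110678550), with 4.98, 14.99, 10.3 and 8.004 in the WT libraries. A region 97669 bp from Ctnnb1, which encodes β-catenin, the effector of WNT signalling (chr9:120659513-120660129), had 5.60, 15.8, 7.996 and 5.83 in vivo. In culture the Ctnnb1 region reached 6.78 to 16.4 in 7 WT lists and 13.5 in 1 cKO list. The Plk2 region had 4.08 to 8.25 in the 8 WT lists and 4.61 in 1 cKO list. Their summit windows, chr2:33483252-33483451, chr13:110678244-110678443 and chr9:120659653-120659852 on the plus strand, are shown as members called with Rxra in both settings. Capitals mark motif matches. All hold AP-1, the Lmx1b window also RUNX, GATA and KLF/SP, the Plk2 window NFY, and the Ctnnb1 window TEAD and NFY. The windows of the Fbf1, Rab30 and Tns3 regions, also among the 11 and not shown, hold no AP-1 match.
Lmx1b: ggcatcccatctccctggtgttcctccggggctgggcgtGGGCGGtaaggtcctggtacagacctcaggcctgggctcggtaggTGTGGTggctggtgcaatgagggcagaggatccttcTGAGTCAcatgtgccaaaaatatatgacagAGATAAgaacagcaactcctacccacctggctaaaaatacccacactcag
Plk2: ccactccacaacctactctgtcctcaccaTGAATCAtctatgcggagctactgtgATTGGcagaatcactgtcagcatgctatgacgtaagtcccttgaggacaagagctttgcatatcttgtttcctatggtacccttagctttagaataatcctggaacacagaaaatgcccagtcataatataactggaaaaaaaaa
Ctnnb1: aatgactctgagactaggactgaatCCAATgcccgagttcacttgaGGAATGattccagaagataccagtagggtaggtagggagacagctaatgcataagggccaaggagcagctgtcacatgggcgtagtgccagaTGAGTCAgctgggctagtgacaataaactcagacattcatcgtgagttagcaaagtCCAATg

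The others were in an exon of Fbf1, a centriole protein gene (median fold 8.79 over the 4 WT libraries), far from Slc10a2, the ileal bile acid transporter gene (7.79), in an intron of Ccdc88c, a regulator of non-canonical WNT signalling (7.79), and near Fam43a (7.28). Further regions lay near Htr4, a serotonin receptor gene (6.04), Rab30, a Golgi GTPase gene (5.997), Fam209 (5.03), and in Tns3, a focal adhesion gene (4.30), the last outside the rule for naming and added after its values were seen. Of the 11, 1 lay on distal chromosome 2, that near Fam209 (chr2:172340672-172341292). The member called in all 3 cKO and no WT library in vivo was in an intron of Fndc3a (chr14:72919450-72920512).

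No member that could be tested passed a test of peak height between the genotypes in vivo. The 94 members with a peak in all 7 CatVII Rxra libraries, 7.7% of members against 30.4% of WT-present and 11.2% of all regions, were tested among 17879 such regions by limma on log2 fold enrichment. Neither did any other region (background 0% in both directions). Asking for a peak in all 7 libraries left out members without one in any cKO library, among them the 11 called in WT alone. A peak lost in cKO could thus not be seen by this test. At an unadjusted p below 0.05 there were 8 members (8.51%) and 1799 regions in all (10.1%). With the replicate number as a block, 0 members and 2 regions passed, both higher in cKO (0.0112%). The median log2 difference, cKO minus WT, was -0.03 over these members and 0.02 over all regions tested. Without WT replicate 1, 1 member was lower in cKO, among 347 lower and 217 higher regions. No peak was called for 425 members (34.8%) in any of the 15 in vivo libraries, against 22.0% of WT-present regions.

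BEL treatment of the corpses was tested within the WT cultures, by fold enrichment. The rule used presence in these same 8 lists, and a peak call depends on enrichment. Regions with a peak under only 1 treatment could therefore not be members. The members' shares below the background cannot be told apart from how members were chosen. Only the 400 members with a peak in all 8 lists could be tested, among 41600 regions. By limma, 6 members (1.5%) were lower with BEL and 6 (1.5%) higher, against a background of 4.56% lower and 4.44% higher. With the replicate number as a block it was 29 lower (7.25%) and 13 higher (3.25%), against 9.94% and 7.7%. The calls moved with single libraries, for members as for all regions. Without corpse replicate 2, 0 members were called among 733 lower and 1161 higher regions, and without BEL replicate 2, 0 among 541 and 513. Without corpse replicate 3, 20 members were lower and 12 higher, among 3654 and 2757 regions, and without corpse replicate 4 it was 4 and 2, among 1343 and 1428. Without BEL replicate 1, 3 or 4, 2, 2 and 5 members were lower and 0 higher, among 514 to 781 lower and 567 to 1042 higher regions. The shortest peak, which follows fragment length, was 144 to 145 bp in the BEL lists and 60 to 104 bp in the corpse lists, so treatment and fragment length cannot be told apart.

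Among the lower members was a region 2865 bp from the start of Srebf2, which encodes SREBP2, the activator of cholesterol synthesis genes (chr15:82028435-82028640, in an exon part of the neighbouring Ccdc134). Its fold enrichment was 7.36, 6.20, 5.39 and 8.19 with corpses and 3.56, 3.17, 3.66 and 3.36 with BEL, without overlap. With BEL it fell by 0.92 ± 0.24 (SE) on the log2 scale, adjusted p = 0.0234 by limma. A region 76048 bp from Mitf, a melanocyte factor gene, fell by 0.85 ± 0.23 (adjusted p = 0.0260 by limma), from 10.8 to 12.4 down to 4.28 to 8.78. Those near Rbpms, an RNA-binding protein gene, and near Dlc1 fell by 0.95 and 0.79, and that in Cpne5 by 0.69. The sixth lower region lay near Ttc7b. Among the higher members, regions near Khnyn, in Asap1, near Mep1a and near Trp53inp2 rose by 0.81, 0.66, 0.66 and 0.67, and that near Zfp703 by 0.49. The Khnyn region had 4.66 to 5.23 with corpses and 6.07 to 10.6 with BEL, without overlap.

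Genes of 14 pathway lists, among them dead cell clearance and retinoid handling, held members at about the rate of all WT-present regions. In the windows of their 358 genes, 50 kb upstream to 5 kb downstream of the gene, 52 of 2251 WT-present regions were members, or 2.31%, beside the background of 2.33%. The 27 engulfment receptor and bridging protein genes, among them the TAM receptors, held 0 members in 145 WT-present regions, and the 21 cell cycle genes 0 in 112. By nearest start instead of this window, the engulfment list had 1 member and the cell cycle list 0. The study also assigned some intergenic peaks farther away to phagocytosis genes by hand, which was not done here. The phagocytic cup list, the actin machinery of uptake, held 7 of 231 (3.03%) and the phagosome and lysosome list 6 of 194 (3.09%). The retinoid list held 5 of 132 (3.79%), lipid handling 4 of 134 (2.99%), adhesion and matrix 8 of 248 (3.23%), and Notch and Hedgehog signalling 6 of 154 (3.90%). HFSC identity held 2 of 140 (1.43%), the epidermal programme 4 of 169 (2.37%), AP-1 and stress genes 4 of 188 (2.13%) and inflammatory signalling 1 of 126 (0.794%). WNT signalling held 2 of 132 (1.52%) and BMP and TGF-beta signalling 3 of 146 (2.05%). With counts this low, these shares are descriptions of single elements.

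Of the retinoid genes, Rarg, which encodes RARγ, held a member in a non-coding exon part (chr15:102143794-102144369), 3716 bp from the start of its neighbour Itgb7. It had 4.60 to 6.34 in the corpse lists, 6.13 to 8.24 in the BEL lists and no cKO peak in culture. In vivo the Rarg region was called in 2 of 4 WT (4.36 and 5.37) and 3 of 3 cKO libraries (6.17, 6.27 and 9.35), the reverse order. Ncoa1, a nuclear receptor coactivator gene, held an intronic member with 10.2 to 13.9 in 3 corpse lists, 4.20 to 9.45 in the BEL lists and 6.34 in 1 cKO list. Tgm2, a transglutaminase gene known as a retinoid target, held one on distal chromosome 2 (chr2:157972484-157972985). The Tgm2 region was called in 3 of 4 WT libraries in vivo (8.82, 7.18 and 6.27) and in 0 of 3 cKO. A further member 13398 bp from a start of Tgm2 (chr2:158001537-158002067) was called in 2 WT and 0 cKO libraries. Near Rxra lay members at 33763 bp (chr2:27532416-27532978) and 30136 bp (chr2:27660112-27660617) from a start of the gene, called in vivo in 0 WT and 1 cKO library and in 2 WT and 1 cKO library.

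The phagocytic cup genes with members were Trio, Wasl, Myo10, Src, Vav3 and Abl2. Wasl encodes N-WASP, which drives actin branching, and its intronic member was called in 1 WT library in vivo. Vav3 encodes an activator of Rac GTPases, and its intronic member (chr3:109475919-109476434) was called in 3 WT (6.38, 3.88 and 4.85) and 0 cKO libraries. The members of Trio and Myo10 were called in none of the 7 CatVII Rxra libraries, and those of Src, a kinase gene on distal chromosome 2, in 4 WT and 2 cKO libraries at its promoter and in 2 WT and 0 cKO libraries at chr2:157315029-157315710. In culture, the Src promoter region had 7.06 in 1 cKO list and 4.87 to 11.8 in the 8 WT lists. For the phagosome, the members in Ctsd, the gene of the lysosomal protease cathepsin D, and Rab7b, a late endosomal GTPase gene, had medians of 4.50 and 4.45 over the WT lists. The Ctsd region was called in 1 and the Rab7b region in 0 CatVII Rxra libraries, and that in Uvrag, an autophagy and endosome gene, in 3 WT and 3 cKO.

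Lipid genes included both SREBP genes. Besides the Srebf2 region above, the promoter of Srebf1, the activator of fatty acid synthesis (chr11:60113289-60114026, 41 bp from a start), was a member with 2.94 to 5.08 in 3 corpse and 3.02 to 4.17 in the BEL lists. Its region and 2 in Tom1l2 next to it formed 1 of the 3 runs of 3 neighbouring members, over 70585 bp. In vivo the Srebf1 promoter was called in 2 WT and 2 cKO libraries. Pla2g6, which encodes iPLA2β, held a member 1695 bp from its start with 2.89 to 6.17 in 3 corpse lists, and 1 cKO library had a peak there in vivo. The other runs of 3 lay beside Cdh26 on distal chromosome 2 and beside Bbs2 and the metallothionein genes Mt4 and Mt3.

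Members in stem cell and epidermal genes were few. Trp63, the master gene of stratified epithelia, held an intronic member (chr16:25605141-25605794) called in 3 WT (6.62, 4.40 and 6.31) and 0 cKO libraries in vivo. Tcf7l2, a WNT effector gene, held one called in 4 WT and 3 cKO libraries. Sprr1b, a cornified envelope gene, held one at its promoter and Klf5 one in a coding exon, each called in 1 WT and 0 cKO libraries in vivo. Of the adhesion genes, Itgb6 and Cdh13 held members called in 3 WT and 0 cKO libraries, the 2 members of Lama3 in 4 WT and 2 cKO and in 3 WT and 2 cKO, Itgb8 in 3 WT and 2 cKO, and Cd44 in 2 WT and 1 cKO. Of the signalling genes, a member inside the annotated Wnt10b gene and 750 bp from the start of the adjacent Wnt1 was called in 2 WT and 0 cKO libraries, and members in Ltbp1 and Inhba in none of the 7. Rbpj, the DNA-binding effector of Notch, held one called in 3 WT (12.5, 4.71 and 4.37) and 0 cKO libraries (chr5:53638317-53639038), and Gli2, a Hedgehog effector, one called in 1 WT and 1 cKO library.

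Jag1, a Notch ligand gene on distal chromosome 2, had the most members nearest to its start, 5 of 51 WT-present regions. In vivo, the Jag1 member in an intron at chr2:136944964-136945875 was called in 3 WT (5.13, 3.59 and 3.68) and 0 cKO libraries and the one at chr2:136919679-136920662 in 4 WT and 2 cKO. In culture, the intronic member had 4.30 in 1 cKO list, above the 2.47 to 3.79 of its 7 WT lists. The other 3 members of Jag1 were called in vivo in 1 WT and 0 cKO, 0 WT and 1 cKO, and 0 WT and 1 cKO libraries. Foxp1, Klf5, Shank2, Tanc1, Top1 and Zeb2 had 4 members each, of 43, 19, 19, 16, 14 and 29 WT-present regions. Of these 7 genes, Jag1, Tanc1, Top1 and Zeb2 are on chromosome 2, Jag1 and Top1 in its distal part.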

How the data were processed

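Per the submitters' processing notes, the authors used BWA 0.7.18, SAMtools 1.17 and MACS3 3.0.0 with mm39, and each library had its own peak list. The deposited lists give per peak a fold enrichment (a ratio at the summit), its −log10 p-value and −log10 q-value, and the summit offset. Read counts were not used, as the lists hold none. Summit fragments were solved from fold and p under a Poisson background, and 95.8% to 100% of peaks per library came out whole within 0.05. Where 2 solutions existed, the one nearer a whole number was kept, which raises that share. Regions were annotated with GENCODE M39. Presence was tested with Fisher's exact test (scipy 1.17.1) and log2 fold enrichment with limma 3.58.1, centred on library medians and Benjamini-Hochberg adjusted at 0.05 over all regions tested. Steps were checked on simulated data.

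Members and gene lists were chosen with earlier results of these data known. Named regions were the 12 strongest with 8 WT and 0 cKO lists, up to 3 per pathway list inside or within 5 kb upstream of a gene, 10 called in WT alone in vivo, 5 per direction passing limma, and the 5 genes with most members, ties kept. Regions of Src, Vav3, Abl2, Itgb6, Cdh13, Tns3 and Ttc7b, the members near Rxra, the second ones of Src, Lama3 and Tgm2, the 10 regions with repeats and the runs of 3 were named outside this rule, after their values were seen. Same-numbered corpse and BEL replicates deviated together (correlations 0.136 to 0.362 in 4 pairs), so the blocked fit is given. Differently numbered replicates with the same stored Phago or NonPhago tag did so too (0.129 to 0.386), and those with different tags did not (-0.330 to -0.108), so number and tag cannot be told apart in this block. CatVII numbers did not pair (0.173, -0.167 and 0.00238). Alternatives covered thresholds, list length, merging, centring and left-out libraries. The reference carries no repeat masking, so repeats are not described.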

Additional observations from a re-analysis of the deposited data

Results flagged for a closer look

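Of 68 groups of 4 to 6 libraries examined, 1 held a library far from the others, fewer than the 1 in 20 that chance gives. Among the CatVII wild type libraries, replicate 2 had a peak in 25.4% of members, while the lowest of the 6 had 1.64%. It was also the longest list of its group.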

How the results depend on the processing

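The members' number was 1057 to 1316 with a stricter threshold, summit windows, 50 bp of overlap or corpse lists only. It was 1958 with equal-length lists (234 of the 1221 were among them). With 1 library left out it was 1256 to 3332, under a looser rule of at least 6 of 7 WT or at most 1 of 4 cKO lists. Members called in WT alone in vivo, with the share of all regions in brackets, were 5 at the stricter threshold (0.111%) and 18 with the P42 libraries (0.532%). They were 14 with equal-length lists (0.349%), 10 with summits inside (0.164%) and 11 to 68 with 1 library left out (0.18% to 1.43%). In the pairing of CatVII Rxra libraries by number (replicate block), 0 members passed limma, as under every other setting except 1 without WT replicate 1 (range 0 to 1). Members changed by BEL are given with all regions lower and higher in brackets. They were 42 of 400 with the replicate block (4133 and 3205 of 41600) and 12 of 400 with quantile normalization (1234 and 1919). Without centring they were 2 of 400 (146 and 0), and with missing values allowed 32 of 1221 (1954 and 2186 of 55613). With 1 library left out they were 0 to 32 of 400, with the backgrounds given above. With equal-length lists 34.6% of members and 88.3% of WT-present regions were in the held-out WT AA+LPC+RA library. Within 2 kb of a start lay 25.3%. In 100 bp windows, AP-1 was in 25.1%, the relaxed repeat in 0.409% and the half-site in 5.81%. Chosen after seeing the data, the distal chromosome 2 difference by fold enrichment was 0.11, and 1089 members, 10 of them called in WT alone in vivo, were left without that part. The cause of these shifts was not tested. Members were shallow and the lists differed in length, and the part of either in these shifts was not tested.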
